A study of Mus musculus with 10 samples.

Results

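Zfhx2, Zfhx3 and Zfhx4 are the ZFHX genes of the mouse, and together with Trps1 they make up the 4 genes described here, out of 24453 genes in the count table. They were selected on earlier results of these same libraries, in which the counts of both IT-PN types were already known, so their levels and fold changes are given as a description with no test. IT-PNs are intratelencephalic projection neurons, cortical neurons whose axons stay within the telencephalon. The libraries came from 5 male mice of the (Zfp312-EGFP)CO61GsatMmnc line, hemizygous for a GFP reporter driven by Fezf2 regulatory elements and kept on a Swiss Webster background. A retrograde tracer, the B subunit of cholera toxin coupled to a far-red dye, was placed in the left primary motor cortex (M1) at postnatal day 23 to 25, and layer 5 of the right M1 was collected at postnatal day 28 to 32. Cells with GFP and tracer were sorted as Fezf2+ve IT-PNs and cells with tracer alone as Fezf2-ve IT-PNs, which gave 5 libraries of each type, with 1 of each from each of 5 animals. All mice carried the reporter and received the tracer, and no library of untreated tissue was used here. GFP reports the activity of the transgene, and its level was not among the counts.

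ZFHX proteins are very large transcription factors that carry many zinc fingers and several homeodomains in the same chain. ZFHX3, also called ATBF1, acts in neuronal differentiation and in the circadian clock of the suprachiasmatic nucleus. ZFHX4 is known to work with the chromatin remodeller CHD4. TRPS1 is a transcriptional repressor with a GATA-type zinc finger and Ikaros-like zinc fingers, and its loss causes tricho-rhino-phalangeal syndrome. It is no member of the homeobox class.

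Reads on genes numbered 107643 to 203379 per Fezf2+ve library, with a median of 118134, and 89138 to 217738 per Fezf2-ve library, with a median of 168711. In most libraries these totals exceeded the mapped reads that the paper gives, so they hold some reads more than once. The Fezf2-ve library was deeper in 4 of 5 animals (paired exact permutation, two-sided p = 0.188), and since 5 animals allow no p under 0.063, this test could not pass 0.05. At this depth 3 reads, taken as the floor of detection, correspond to 13.8 to 33.7 CPM (counts brought to a common library total), and 1 read to 4.59 to 11.2 CPM. Floors and counting intervals cover counting error only, since the libraries were amplified, carried no molecular identifiers, and 1 molecule can give several reads. Reads were also concentrated in single libraries: the quartiles of the share of a tested gene's reads held by 1 library were 36.4 and 66.7%.

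Markers of excitatory cortical neurons and of layer 5 were low in most libraries. Neither list is particular to IT-PNs, so a gene at 0 on them is not read as a missing marker of the sorted type. Tbr1, on the excitatory list, and Crym, on the layer 5 list, had 0 reads in all 10 libraries. Slc17a7, the vesicular glutamate transporter of cortical excitatory neurons, had 11 reads in total. Fezf2 itself had 1 read, in Fezf2+ve library 5. The summed level of 10 excitatory neuron markers was 45.8 to 563 CPM in the Fezf2+ve libraries and 48.5 to 86.0 CPM in 4 Fezf2-ve libraries, against 2633 CPM in Fezf2-ve library 3, where Camk2a alone had 529 reads. The 7 layer 5 identity markers summed to 3135 CPM in that library, of which Rorb had 646 reads, and to 53.5 to 561 CPM in the other 9. These values do not establish the labelled cell type from these broad lists, and the type names below are those of the labels. By RT-PCR, the paper detected Fezf2 in the sorted cells with GFP and tracer, and not in those with tracer alone.

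In each of 5 animals Zfhx3 was higher among the Fezf2-ve cells. It had 4, 2, 5, 1 and 1 reads in Fezf2+ve libraries 1 to 5, and 179, 5, 131, 552 and 64 reads in Fezf2-ve libraries 1 to 5. Fezf2-ve library 2 was thus close to the Fezf2+ve libraries, and the other 4 stood well above them. On TMM-scaled CPM, in which library totals are corrected for differences in composition, the types did not overlap, with 5.95 to 33.4 CPM in Fezf2+ve and 41.8 to 4316 CPM in Fezf2-ve libraries. This gap is narrow, since the highest Fezf2+ve and the lowest Fezf2-ve library both had 5 raw reads. Mean levels on log2(CPM + 1) were 4.07 ± 0.99 for Fezf2+ve and 9.00 ± 2.41 for Fezf2-ve libraries (SD, n = 5 each). The fitted log2 fold change of Fezf2+ve over Fezf2-ve was -4.87 (SE 1.39). In pooled reads, Zfhx3 was 58.5-fold higher in Fezf2-ve libraries (exact 95% counting interval 34.1 to 110). Fezf2-ve library 4 held 58.5% of all Zfhx3 reads, and without animal 4 the pooled ratio was 26.9 (15.2 to 52.4).

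**Figure D1:**
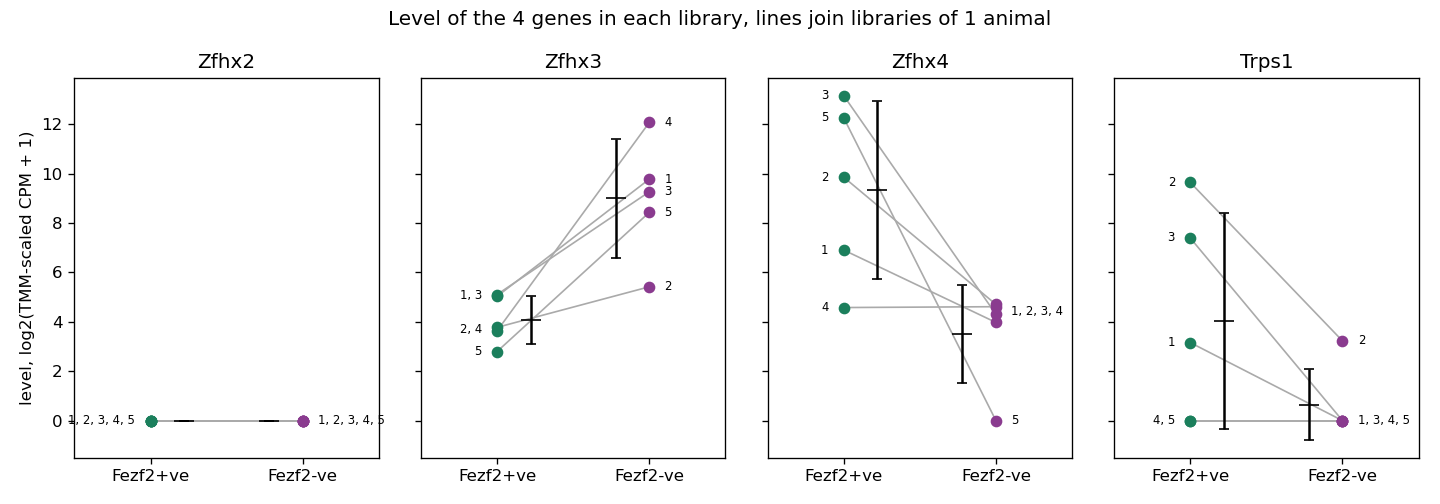
Level of each gene on log2(TMM-scaled CPM + 1) in Fezf2+ve (green) and Fezf2-ve (purple) libraries, with numbers for the animals, grey lines joining the libraries of an animal, and black bars for the mean and SD of 5 libraries. Zfhx3 is higher in Fezf2-ve in all 5 animals, Zfhx4 is higher in Fezf2+ve in 4 of 5, Trps1 is above 0 in 3 Fezf2+ve libraries and 1 Fezf2-ve library, and Zfhx2 is at 0 throughout.

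Zfhx4 had the opposite direction in 4 of 5 animals. Its reads were 15, 146, 1367, 2 and 824 in Fezf2+ve libraries 1 to 5, and 3, 3, 4, 3 and 0 in Fezf2-ve libraries 1 to 5. Libraries 3, 5 and 2 of the Fezf2+ve type carried nearly all of its reads, while Fezf2+ve library 4 lay within the Fezf2-ve range, so the types overlapped. In Fezf2+ve library 3 it ranked 5 among all genes by reads. Mean levels on the same scale were 9.35 ± 3.60 for Fezf2+ve and 3.52 ± 1.99 for Fezf2-ve libraries (SD, n = 5 each), and the fitted log2 fold change was 5.55 (SE 2.08). The pooled ratio was 222 in favour of Fezf2+ve libraries (exact 95% counting interval 129 to 417), and 57.8% of all Zfhx4 reads came from 1 library, Fezf2+ve library 3. Without animal 3 the ratio was 130 (68.0 to 284).

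Trps1 reads lay almost wholly in a pair of Fezf2+ve libraries. It had 1, 126, 25, 0 and 0 reads in Fezf2+ve libraries 1 to 5, and 0, 1, 0, 0 and 0 in Fezf2-ve libraries 1 to 5. Animals 4 and 5 had none in either type, and 82.4% of the reads came from Fezf2+ve library 2. Levels averaged 4.04 ± 4.36 for Fezf2+ve and 0.65 ± 1.44 for Fezf2-ve libraries (SD, n = 5 each), so the SD exceeded the mean in both types. The fitted log2 fold change was 5.81 (SE 1.88) in edgeR and 3.73 (SE 1.91) in DESeq2 with the same block, and the pooled ratio of 152 to 1 reads was 186 with an exact 95% counting interval of 32.9 to 7392. Without animal 2, Trps1 no longer passed the filter on low counts, and its 26 Fezf2+ve reads against 0 gave no ratio.

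Zfhx2 had 0 of 1553687 reads on genes, which allows up to 1.93 CPM over the pooled libraries. It was not detectable at this depth in either type, and no fold change is given. A count of 0 in every library was shared by 9945 genes of the table (40.7%).

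A filter of 10 CPM or more in 2 or more libraries kept 7409 genes, among them Zfhx3 (8 libraries), Zfhx4 (9) and Trps1 (3), and left out Zfhx2 (0). Since a gene high in 1 type can pass through that type alone, the 3 that passed are not a result about the 4. The types did not overlap in 108 of the 7409 genes (1.46%), and in 1 of the 4 genes described here, which were chosen with this contrast known.

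Levels of different genes were set in order on CPM per kilobase of merged exons, on CPM per kilobase of the whole span and on CPM without length. The last is included because the study describes its libraries as biased to transcript 3′ ends, and where that holds, a value per kilobase does not measure a level. Whether exons alone or whole gene spans were counted is not stated either. In most libraries, however, the reads on genes exceeded the mapped reads that the paper gives. The paper also places more reads in introns than in exons. Exon reads counted once each would fall short of these totals, which points to whole spans as the length counted. The order of the means was the same on all 3 scales, but the gaps between them were not. In Fezf2+ve libraries Zfhx4 came first with 192 ± 252 CPM per kilobase of exon (SD, n = 5), followed by Trps1 with 14.6 ± 25.8 and Zfhx3 with 0.908 ± 0.602. Zfhx4 exceeded Trps1 in 4 of 5 libraries on this scale and in 5 of 5 on CPM. Trps1 exceeded Zfhx3 in 2 of 5 on both and in 3 of 5 per kilobase of span. Per kilobase of span the means were 15.3 ± 20.1 for Zfhx4, 0.827 ± 1.47 for Trps1 and 0.0187 ± 0.0124 for Zfhx3. In Fezf2-ve libraries Zfhx3 came first with 59.1 ± 83.3 CPM per kilobase of exon (SD, n = 5), above Zfhx4 with 1.04 ± 0.637 and Trps1 with 0.125 ± 0.279. Per kilobase of span these means were 1.22 ± 1.72, 0.0831 ± 0.0508 and 0.00709 ± 0.0159. Zfhx3 was higher than Zfhx4 in 5 of 5 libraries per kilobase of exon and on CPM, and in 4 of 5 per kilobase of span. The values of Zfhx4 and Trps1 there rest on 0 to 4 reads a library. Zfhx2 stood last in both types with 0 reads. These spans are GENCODE M21 positions, whereas the authors counted on RefFlat genes. A RefSeq promoter window of Zfhx3 starts at chr8:108714394, inside its GENCODE span of 1019 kb, which starts at 107942644. Where the counted gene was shorter than this span, the span values of Zfhx3 are too low. The counts of 4 of 5 and 3 of 5 libraries per kilobase of span depend on that length.

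Position and overlap bear on what the counts hold. On GRCm38 (mm10), with GENCODE M21 positions, Zfhx3 lies at chr8:107942644-108961630 on the plus strand, Zfhx4 at chr3:5218526-5415857 on the plus strand, Trps1 at chr15:50654752-50890463 on the minus strand and Zfhx2 at chr14:55060262-55092324 on the minus strand. The antisense gene 2700069I18Rik overlaps the first 2316 bases of Zfhx4. It had 2, 0, 299, 0 and 254 reads in Fezf2+ve libraries 1 to 5 and 2, 1, 0, 0 and 0 in Fezf2-ve libraries 1 to 5, so it was high in the Fezf2+ve libraries 3 and 5 where Zfhx4 was highest, and at 0 in library 2. Its log2 fold change was 4.69 (SE 3.26, adjusted p = 0.999 by edgeR with the block, 0.0931 without it and 0.521 by DESeq2). Whether reads were assigned by strand is not stated, so those of Zfhx4 and of its antisense partner cannot be told apart within the overlap.

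**Figure D2:**
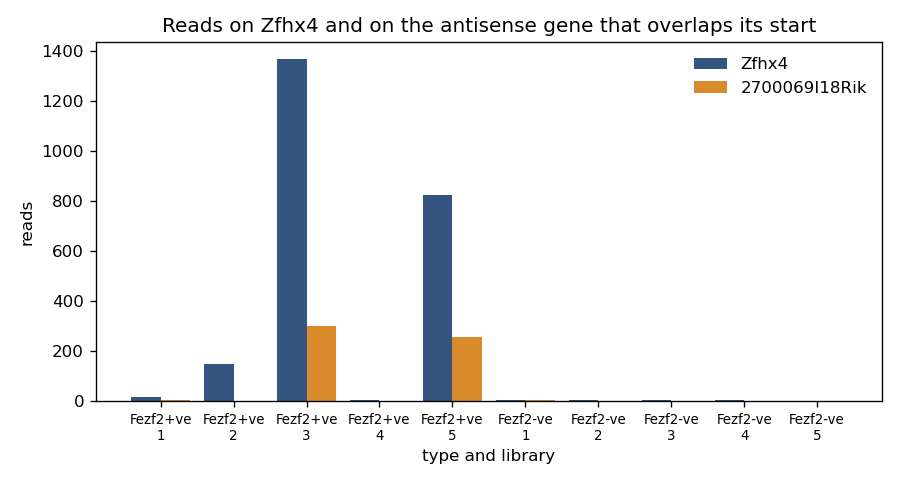
Bars give the reads on Zfhx4 (blue) and on 2700069I18Rik (orange) in each library, on a linear axis. Both are highest in Fezf2+ve libraries 3 and 5, whereas Fezf2+ve library 2 has 146 reads on Zfhx4 and 0 on 2700069I18Rik.

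Genes overlapping the other 3 had few or no reads. Zfhx2os, antisense to Zfhx2, had 0, as did Mir3108 within Zfhx3 and Mir1907 within Trps1, and Lncbate1 within Zfhx3 had 2. Gm20687 at Zfhx2 and Gm39244, Gm38042, Gm38318 and Gm20686 at Zfhx3 are annotated there and have no row in the table. Among the nearest genes of the count table on each side, Csmd3, 1863 kb from Trps1, had 1106 reads (log2 fold change 0.46, SE 1.31, adjusted p = 0.999 by edgeR with the block). The others lay 2.46 to 404 kb away and had 0 to 13 reads each: Gm10364 and Thtpa at Zfhx2, Psmd7 and D030068K23Rik at Zfhx3, 1110015O18Rik and Pex2 at Zfhx4, and Gm19303 at Trps1.

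RefSeq promoter windows of 300 bases on GRCm38.p6 were at hand for 2 of the 4 genes, and are shown because they place a start of the gene with no reads beside one of the gene with reads in all 10 libraries. TAAT, a core of many homeodomain sites, and GATA, the core bound by GATA-type zinc fingers, were searched on both strands, and capitals mark a match. The windows are chr14:55091999-55092298 on the minus strand for Zfhx2 and chr8:108714394-108714693 on the plus strand for Zfhx3. The Zfhx2 window lies at the GENCODE M21 start of its gene. The Zfhx3 window lies far inside the GENCODE span, which starts at 107942644, so it marks a different start. Lncbate1 and Gm39244, within that span, lie upstream of this window.
Zfhx2: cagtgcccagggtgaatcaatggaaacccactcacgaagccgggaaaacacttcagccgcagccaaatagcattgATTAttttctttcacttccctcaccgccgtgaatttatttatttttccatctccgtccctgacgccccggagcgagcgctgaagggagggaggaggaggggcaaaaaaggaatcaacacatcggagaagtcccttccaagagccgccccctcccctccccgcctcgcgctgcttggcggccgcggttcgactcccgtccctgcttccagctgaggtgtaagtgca
Zfhx3: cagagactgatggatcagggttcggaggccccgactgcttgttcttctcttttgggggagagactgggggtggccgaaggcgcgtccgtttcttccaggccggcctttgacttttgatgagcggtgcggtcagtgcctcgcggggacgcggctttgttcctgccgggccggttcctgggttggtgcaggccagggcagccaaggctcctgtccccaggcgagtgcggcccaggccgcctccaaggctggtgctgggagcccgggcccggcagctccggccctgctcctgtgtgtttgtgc
The Zfhx2 window held 1 TAAT match and 0 GATA matches, and the Zfhx3 window 0 of either. Of 32851 promoter windows of this length, 58.0% held TAAT and 57.9% held GATA. The Zfhx2 window held 20 CpG and the Zfhx3 window 21, against a median of 7, and 73.5% and 75.2% of all windows held fewer.

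Across all genes, the quasi-likelihood test of edgeR, blocked by animal, called 0 of 7409 (0%) at a Benjamini-Hochberg adjusted p of 0.1, with 284 genes (3.83%) at an unadjusted p under 0.05. Without the block it called 279 genes (3.77%), and DESeq2 with the block called 98 of the 1664 genes to which it gave an adjusted p (5.89%). The lists that follow are read against these shares and against the median log2 fold change over all tested genes, which was -0.16.

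Other zinc-finger homeobox genes did not pass the test in any direction. This class holds ADNP proteins, the ZEB repressors, the ZHX factors, HOMEZ and the teashirt (TSHZ) factors. Of 11 such genes 7 were tested, 5 with a higher and 2 with a lower fitted value in Fezf2+ve libraries, and their median log2 fold change was 0.77, also with Tshz3, which had 0 reads in 1 type, at its bound. By edgeR with the block 0 were called and 0 had an unadjusted p under 0.05, and 0 were called without the block. DESeq2 gave an adjusted p to 2 of the 7, Zeb2 and Tshz2, and called 0. The direction of Zeb2 depended on the fit, with a log2 fold change of -0.56 with the block and 2.67 without it, where the counts became 6 higher and 1 lower. It was also positive without animal 3 (0.80) or animal 4 (0.84), and Tshz1 turned to -0.47 without animal 3. Tshz2 and Zeb2 had the most reads, and each drew them from 1 library: 2628 of 2661 Tshz2 reads were in Fezf2-ve library 3, and 2102 of 2493 Zeb2 reads in Fezf2+ve library 5. The antisense gene Zeb2os, singled out after its values were seen, had 1512 reads in that same library, so the Zeb2 count is uncertain.

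Among the relatives, Zeb1 had more reads in the Fezf2+ve library in 4 animals and tied in animal 5, with 10, 4, 12, 1 and 2 reads in Fezf2+ve against 4, 2, 5, 0 and 2 in Fezf2-ve libraries (log2 fold change 1.39, SE 1.1, adjusted p = 0.999 by edgeR). Tshz3 had 0, 10, 0, 1 and 3 reads in Fezf2+ve and 0 in all Fezf2-ve libraries (unadjusted p = 0.0656 by edgeR with the block, adjusted p = 0.999). Neither passed the test. Zhx3 (26 reads), Tshz1 (19), Zhx2 (17), Zhx1 (6) and Adnp (2) were near the floor, and Adnp2 and Homez had 0 reads.

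**Figure D3:**
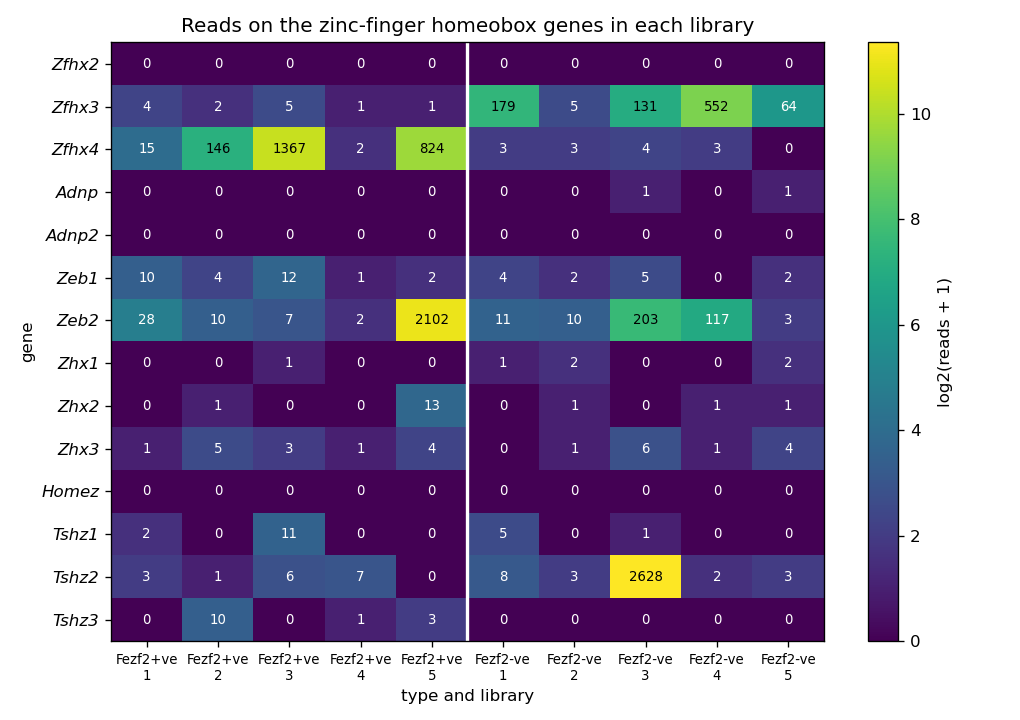
Each cell gives the reads on a gene (vertical axis) in a library (horizontal axis, by type and number), with colour for log2(reads + 1). Most reads of Zeb2 (2102) and Tshz2 (2628) sit in a single library, Zfhx4 is high in Fezf2+ve libraries 2, 3 and 5, and Zfhx3 has 64 or more in 4 Fezf2-ve libraries.

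A list of GATA and Ikaros genes with Gatad1, whose finger types TRPS1 carries, and of the GATA cofactors Zfpm1 and Zfpm2 had 5 of 14 at 0 reads, beside 40.7% of all genes, and 3 tested. Of these 2 had a higher and 1 a lower fitted value in Fezf2+ve libraries, with a median log2 fold change of 1.19, and edgeR with the block called 0, with 1 at an unadjusted p under 0.05. Without the block 0 were called, and DESeq2 called 0 of the 2 to which it gave an adjusted p. That 1 gene was Ikzf1, a regulator of blood-cell and microglial lineages, with 7, 1, 2, 3 and 6 reads in Fezf2+ve and 16, 5, 83, 10 and 290 reads in Fezf2-ve libraries. Each of the 5 animals had more in its Fezf2-ve cells (log2 fold change -2.89, SE 1.27, unadjusted p = 0.0344, adjusted p = 0.999 by edgeR with the block). Zfpm2 had 121 reads (log2 fold change 1.19) and Ikzf2 had 19 (1.78).

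NuRD and CoREST are corepressor complexes with which ZFHX4 and TRPS1 are known to work. Of 18 of their genes 0 were at 0 reads and 11 were tested, 5 with a higher and 6 with a lower fitted value in Fezf2+ve libraries, with a median log2 fold change of -0.01, also with the 2 genes at 0 in a type at their bounds. This split was not steady: it was 6 higher and 5 lower with library size only, 4 and 7 without the block or by DESeq2, and 2 and 5 of the 7 genes tested in both fits without animal 4. EdgeR with the block called 0 and found 1 at an unadjusted p under 0.05, and 0 were called without the block. DESeq2 gave an adjusted p to 1 of the 11, Chd3, and did not call it. Chd3 was also the gene under 0.05, with 123 of its 133 reads in Fezf2+ve library 5 (log2 fold change 4.11, SE 1.66, unadjusted p = 0.0272, adjusted p = 0.999 by edgeR with the block). Hdac1, a histone deacetylase, had 80 reads (log2 fold change -0.01, and 0.14, 0.59 and 0.42 without animals 3, 4 and 5) and Mta3 had 23 (-1.88).

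Known binding partners and regulated genes gave little signal. Among 8 partners 4 were tested, 3 with a higher and 1 with a lower fitted value in Fezf2+ve libraries and a median log2 fold change of 0.83. Without animal 4 this was 2 and 2, with Esr1 at -0.19 in place of 0.39. EdgeR with the block called 0 of them, with 0 at an unadjusted p under 0.05, and 0 were called without the block, while DESeq2 gave none of the 4 an adjusted p. Esr1, the oestrogen receptor, had 33 reads, Rnf4 20 and Gli3 14. Of 8 genes known to depend on ZFHX3 in other tissues, 4 had 0 reads and 1 was tested, Cdkn1a with 8 reads (log2 fold change -1.98, SE 1.89, unadjusted p = 0.309, adjusted p = 0.999 by edgeR). It was not called without the block, and DESeq2 gave it no adjusted p. Afp had 8 reads and Pdgfrb 6.

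Genes most like the 3 detected ones were named by Pearson's r of log2(CPM + 1) over the 10 libraries, as a description. For Zfhx3 they were Ncapd3 (r = 0.964, 7 reads), Rad9b (0.959, 7) and Unc93b1 (0.951, 11), and each of these had 0 reads in all Fezf2+ve libraries. Zfhx4 was most like Apba2 (r = 0.938, 124 reads), Arhgap1 (0.916, 10) and Serpine2 (0.890, 255). Trps1 resembled Mcu (r = 0.960, 1024 reads), C330007P06Rik (0.937, 82) and Kansl2 (0.934, 12), and 831 of the Mcu reads and 76 of the C330007P06Rik reads were in Fezf2+ve library 2. The libraries of a type, depth and a few high libraries are shared by all these values, and 5 of the 9 genes had 12 or fewer reads.

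Microglial markers moved with the type in the same direction as Zfhx3. Of 17 markers 16 were tested and all 16 had a lower fitted value in Fezf2+ve libraries, with 0 called by edgeR with the block, 11 without it, and 11 by DESeq2 of the 12 to which it gave an adjusted p. Their summed level was 262, 133, 80.3, 137 and 173 CPM in Fezf2+ve libraries 1 to 5, and 6171, 4119, 6006, 3502 and 4748 CPM in Fezf2-ve libraries 1 to 5. The sums did not overlap between types and were lower among the Fezf2+ve cells of each of 5 animals (mean log2 difference -5.03, paired exact permutation, two-sided p = 0.063, the smallest possible, adjusted p = 0.563 over 9 lists). Ctss was the most abundant with 817 reads, and no marker of the list was at 0. Fezf2-ve library 2, with 5 reads of Zfhx3, had 4119 CPM of these markers. The markers' part in the Zfhx3 difference was not tested, and in sorted bulk samples fewer cells of a type and less RNA per cell cannot be told apart.

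**Figure D4:**
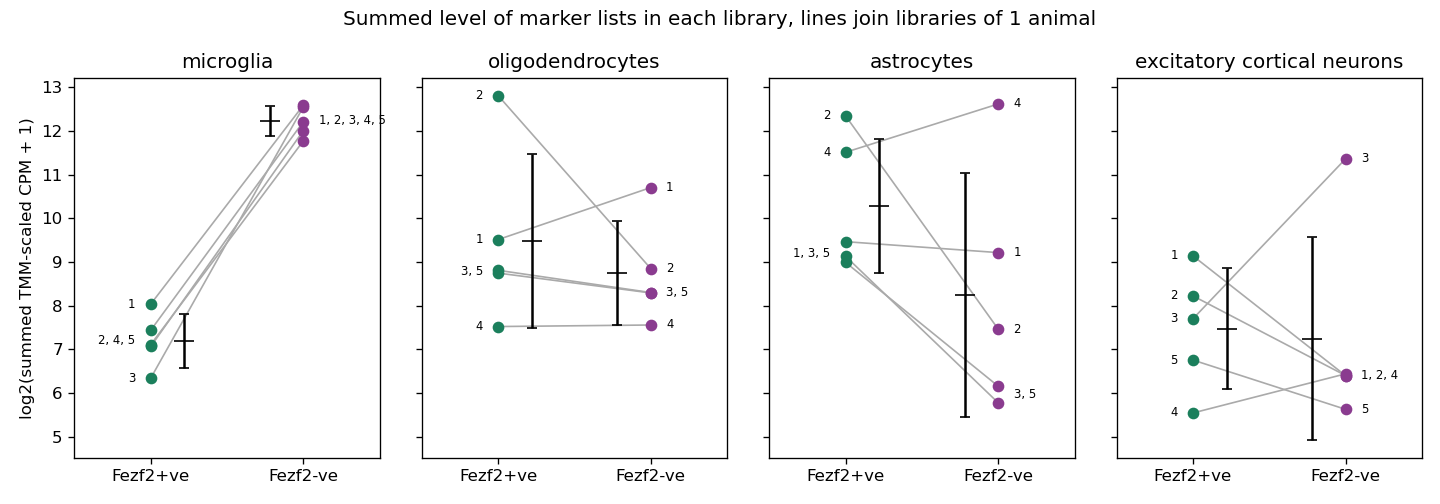
Summed level of 4 marker lists on log2(summed TMM-scaled CPM + 1) in Fezf2+ve (green) and Fezf2-ve (purple) libraries, with numbers for the animals, grey lines joining the libraries of an animal, and black bars for the mean and SD of 5 libraries. Microglial markers are higher in Fezf2-ve in all 5 animals, and the other 3 lists overlap between types.

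Glial markers were also uneven among the libraries with most Trps1 and Zfhx4 reads. Fezf2+ve library 2, with 126 reads of Trps1, had the highest sum of 7 oligodendrocyte markers (7164 CPM, against 183 to 1668 CPM in the other 9), and 5197 CPM of 8 astrocyte markers, led by Slc1a2, with Gfap at 0. The highest astrocyte sum, 6278 CPM, was in Fezf2-ve library 4, which had 0 reads of Trps1 and the most reads of Zfhx3 (552). Both sums are almost wholly 1 gene, since Slc1a2 gave 778 of the 819 astrocyte-list reads in Fezf2+ve library 2 and 791 of the 803 in Fezf2-ve library 4. Astrocyte markers were higher among the Fezf2+ve cells of 4 of 5 animals, with a mean log2 difference of 2.04, and 1.33 to 2.83 with 1 animal left out (paired exact permutation, two-sided, n = 5, p = 0.188, adjusted p = 0.563). For oligodendrocyte markers this was 3 of 5 animals and 0.74 (exact p = 0.625, adjusted p = 1). With 5 animals no p under 0.063 can be reached, so these tests could not pass 0.05 and do not show that the types are alike. Fezf2+ve libraries 3 and 5, with 1367 and 824 reads of Zfhx4, had 448 and 429 CPM of oligodendrocyte markers and 508 and 560 CPM of astrocyte markers. The 6 oligodendrocyte precursor markers, led by Pdgfra with 740 reads, summed to 149 to 2202 CPM in Fezf2+ve and 219 to 1310 CPM in Fezf2-ve libraries. Endothelial markers, led by Flt1 with 26 reads, reached at most 80.8 CPM. Interneuron and mural markers were near 0, led by Npy with 7 reads and Pdgfrb with 6, and Slc32a1, Pvalb, Vip, Lhx6, Vtn, Acta2 and Kcnj8 were at 0. The part of these markers in the levels of Trps1, Zfhx4 and Zfhx3 was not tested.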

How the data were processed

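The data were read counts of 5 Fezf2+ve and 5 Fezf2-ve libraries. Per the study's methods, the authors aligned trimmed reads to mm10 using TopHat2 (2.1.1) and assigned them to RefFlat genes with BEDTools multiCov (2.26.0), and the deposited counts are not normalized. A read can be counted on each gene it overlaps. The authors' DESeq2 comparison table (means, fold changes and p-values) was not used. Genes at 10 CPM or more in 2 or more libraries (7409 of 24453) were fitted in edgeR 4.0.16 (R 4.3.3) with TMM and the animal as a block. Adjusted p-values at or below 0.1 were calls, and SEs were calculated back from the F statistic. Both types of a pair came from the same animal, per the labels. Deviations from type means correlated at 0.03 on average within animals and at -0.01 between animals. DESeq2 was version 1.42.0 and levels used a pseudocount of 1. The 4 genes and all lists were chosen with earlier results of these data known. Genes named are the 4, their homeobox relatives, the 3 most-read and any called genes of the other lists, overlapping and nearest genes, the 3 most alike, leading and zero-count markers, and Fezf2, and the results of some of these are not reported here.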

Additional observations from a re-analysis of the deposited data

Results flagged for a closer look

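Among 44 groups of 5 libraries (levels of single genes, marker sums and depth, by type), 7 held a library far from the other 4. Chance flags about 1 in 20 groups of continuous values, but that rate does not apply to the 4 single-gene levels below that stand on 0 to 5 reads. Zfhx4 was at 0 in Fezf2-ve library 5, against 3.97 to 4.70 on log2(CPM + 1) in the others, which stand for 3 or 4 reads. Trps1 was at 3.23 in Fezf2-ve library 2, which is 1 read, against 0. Zeb1 was at 0 in Fezf2-ve library 4, against 3.56 to 4.61, and Zhx1 was at 2.94 in Fezf2+ve library 3, which is 1 read, against 0. Fezf2-ve library 3 stood apart in 3 values on the log2 scale. Tshz2 was at 13.59 there against 4.06 to 5.33, the excitatory neuron markers at 11.36 against 5.63 to 6.44, and the layer 5 identity markers at 11.61 against 5.80 to 6.97.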

How the results depend on the processing

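Zfhx3 remained lower, and Zfhx4 and Trps1 higher, in Fezf2+ve libraries under each alternative that gave a value. Log2 fold changes ranged from -5.96 to -4.18 for Zfhx3, 4.11 to 7.47 for Zfhx4 and 3.73 to 6.46 for Trps1. Trps1 gave no value without animal 2 or with 10 CPM in 5 libraries, and Zfhx2 gave none. Differences of mean log2 levels (Fezf2+ve minus Fezf2-ve) shrank with a pseudocount of 10 in place of 1. They went from -4.93 to -4.32 for Zfhx3, from 5.83 to 4.87 for Zfhx4 and from 3.39 to 2.09 for Trps1. Without each animal in turn, an alternative added after seeing the data, pooled read ratios were 26.9 to 84.6 for Zfhx3, 130 to 286 for Zfhx4 and 150 to 195 for Trps1, which gave no ratio without animal 2. The genes were chosen on this contrast, so the direction is no sign of stability. The number of called genes was 0 with the replicate block, 279 without it and 98 by DESeq2 with it (of 1664 with an adjusted p), and the cause was not tested. It was 0 with other size factors, library size only, other filters, the legacy quasi-likelihood method (added after seeing the data) and without each animal. The block changed no call on the lists of related genes. The number of the 4 genes whose types did not overlap was 1 on CPM and 0 on raw reads, an alternative added after seeing the data, because 2 libraries tie at 5 reads of Zfhx3. With 1 animal left out, the mean log2 difference of marker sums changed sign for oligodendrocytes (-0.07 to 1.22), oligodendrocyte precursors (-0.31 to 0.39), endothelium (-0.37 to 0.43), mural cells (-0.52 to 0.40), excitatory neurons (-0.40 to 1.20) and layer 5 identity (-1.28 to 1.02), and the cause was not tested. Depth limits genes under 3 reads a library.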
